A study of Caenorhabditis elegans with 5 samples.

Results

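The regions described here are those that PHA-4::GFP occupied on chromosome IV of *Caenorhabditis elegans* L2 larvae. Every row of the deposited region lists that lies on IV was taken, and no measured value entered that choice. The combined list held 1199 such regions of 7745 in all, the replicate 1 list 654 of 4077 and the replicate 2 list 880 of 5335. The 1199 combined regions are the set described, and the replicate regions show which of them recurred.

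PHA-4 is a forkhead transcription factor of the FoxA family and the organ selector gene product of the pharynx, the feeding organ of the worm. It is expressed in the pharynx and in other parts of the digestive tract, binds the regulatory DNA of many foregut genes, and in other species FoxA factors are known to reach sites in closed chromatin. IV is an autosome. Worm autosomes carry a gene-dense centre flanked by arms with more repeats and more meiotic recombination, and they have no single localised centromere.

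The data came from chromatin immunoprecipitation and sequencing (ChIP-seq), in which DNA crosslinked to a protein is recovered with an antibody and read. The 5 libraries were 3 anti-GFP immunoprecipitations and 2 inputs. Of the immunoprecipitations, 1 carries the label replicate 1 and 2, from separate extractions, carry the label replicate 2; both inputs carry the label replicate 1. All libraries came from hermaphrodites of the strain OP37, which has the unc-119(ed3) mutation on III and the transgene wgIs37, encoding PHA-4 with TY1, EGFP and 3xFLAG tags together with unc-119(+). The transgene entered by bombardment, so the regions are those of a tagged protein in 1 transgenic strain, and whole larvae were used, which mixes pharynx with all other tissues. Larvae were grown at 20 °C, fixed with 2% formaldehyde and quenched with 100 mM Tris. Nothing in the labels tells if different cultures gave the replicates, so agreement between them may be technical. The authors' lists give a start, an end and a q-value for each region, with no read count or signal, so the depth is unknown. A q-value is the false discovery rate at which the peak caller PeakSeq reports a region against a control. It ranks regions within a list and is no measure of how much protein was bound. All positions are on the WormBase WS190 assembly. The genes beside the regions, and therefore any marker genes of the pharynx, were not analysed here.

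PHA-4::GFP regions were spread over the whole of IV but were most crowded around its midpoint. In fixed bins of 1 Mb counted from the left end, the combined list had 59, 57, 59 and 55 regions in bins 1 to 4. It had 85, 80, 79 and 93 regions in bins 5 to 8, then 109, 90, 68 and 88 regions in bins 9 to 12. Towards the right, bins 13 to 17 had 73, 67, 43, 34 and 29 regions. The incomplete bin 18, which stops at 17491080, had 31 regions, or 63.1 per Mb, so the sparse part of IV lay just inside its right end. The fullest bins were therefore bin 9 (8000001 to 9000000), bin 8 and bin 10, and the emptiest complete bins were 17, 16 and 15.

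Both replicate lists had the same outline. Bin 9 held 56 replicate 1 regions and 78 replicate 2 regions, and bin 17 held 14 and 26. Replicate 1 peaked elsewhere, in bin 5 (4000001 to 5000000) with 58 regions, while replicate 2 had its highest count, 78, in both bin 9 and bin 10. Across the 17 complete bins the counts of replicate 1 and replicate 2 had a Pearson correlation of 0.915 and a Spearman correlation of 0.939. These are descriptions over neighbouring bins of 1 chromosome, whose share of alignable sequence was not tested.

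**Figure D1:**
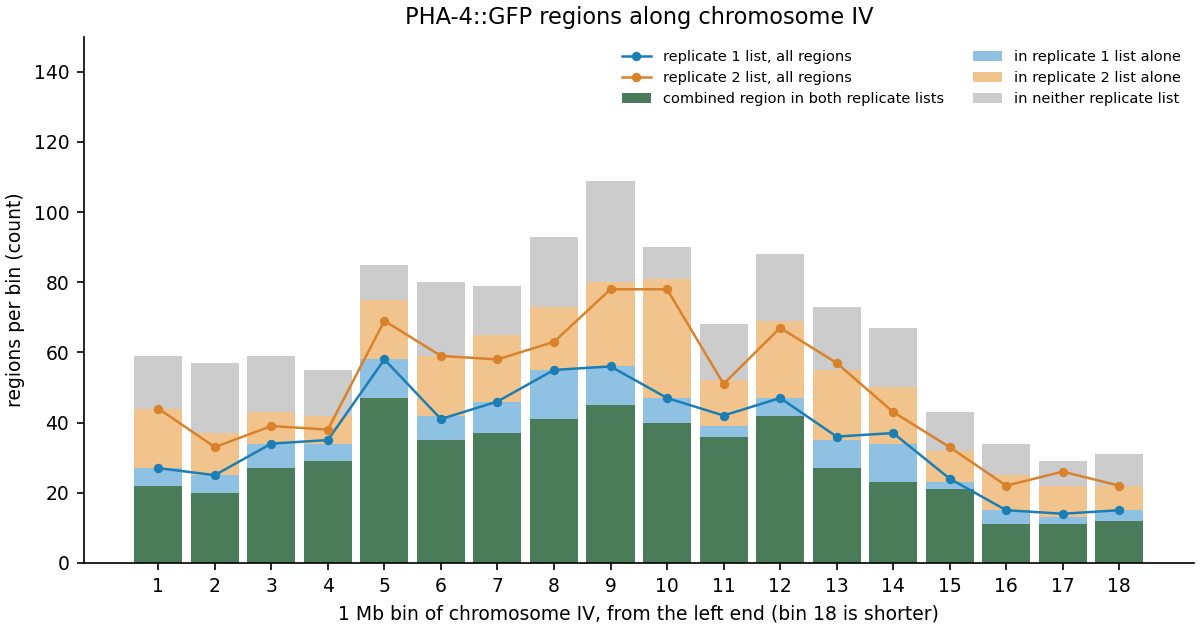
Regions per 1 Mb bin along chromosome IV (horizontal axis: bin number from the left end, vertical axis: number of regions) in the combined, replicate 1 and replicate 2 lists. Bars are the combined regions, divided by presence in the replicate lists, and lines are all regions of each replicate list. The combined counts reach 109 in bin 9 and drop to 29 in bin 17, and both replicate lists follow the same outline.

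In 3 equal parts of the chromosome, the left part held 386 combined regions (32.2%), the middle part 506 (42.2%) and the right part 307 (25.6%). That is 66.2 regions per Mb on the left, 86.8 in the middle and 52.7 on the right. The excess of the left over the right end was seen in each list, with a ratio of left to right counts of 1.26 for the combined regions, 1.38 for replicate 1 and 1.21 for replicate 2. Among the other chromosomes compared, V also had more regions on its left (ratio 1.14), while II (0.603), III (0.914) and X (0.819) had fewer. The share of regions in the middle part of IV lay inside the range of the other chromosomes, 35.1% on X to 47.5% on V (IV minus their mean 0.802 percentage points, exact two-sided permutation test over 5 chromosomes, p = 1). The bins of IV varied by a ratio of SD to mean of 0.315, less than on V (0.389) and II (0.363), and more than on III (0.227) and X (0.179).

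The strongest region of IV was a broad one that each replicate list divided, and the runner-up was a compact one that led both replicate lists. Taken as the regions with the lowest combined q-values that overlapped both replicate lists, the leading 15 had q from 2.68e-115 to 7.74e-51 and widths from 390 to 2721 bp with a median of 1021 bp. They were scattered over 12 of the 18 bins, and 8 of them were 1000 bp or wider. These values chose the regions and are given as a description.

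The first, IV 12198707 to 12201427, was 2721 bp wide with a combined q of 2.68e-115. It held 2 separate regions in each replicate list, of which the better had a q of 1.18e-42 in replicate 1, the list's number 6 on IV, and 8.93e-28 in replicate 2, its number 19. The second, 5604338 to 5605044, was 707 bp wide with a q of 1.72e-114. It ranked first on IV in both replicates, at 6.14e-68 in replicate 1 and 3.82e-57 in replicate 2. The third, 5752946 to 5754657, was 1712 bp wide with a q of 4.05e-107, and it ranked second in both, at 4.02e-61 in replicate 1 and 1.79e-45 in replicate 2. The fourth, 6500598 to 6501247, was 650 bp wide with a q of 3.36e-78. Its replicate values were nearly equal, 2.54e-43 in replicate 1 and 9.18e-44 in replicate 2. Ranking by either replicate alone would thus have put 5604338 to 5605044 first and the combined leader several places lower.

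The fifth, 9041834 to 9043602, differed most between replicates. Its combined q was 6.51e-75, and it stood at place 3 in replicate 1 with a q of 4.09e-50, against place 76 in replicate 2, where it was split into 2 regions with a best q of 7.46e-15. The sixth, 5602329 to 5603811, lay 526 bp left of the second and had a combined q of 2.05e-64, with 5.34e-43 for replicate 1 and 1.78e-30 for replicate 2. The tenth, 12207645 to 12209306, lay in the same 1 Mb bin as the first and also differed in rank, being number 16 of replicate 1 and number 55 of replicate 2. The fourteenth, 11283934 to 11284568, went the other way, as number 36 of replicate 1 and number 7 of replicate 2.

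The other leading regions were 2601940 to 2602981 (q 7.16e-62), 4209064 to 4209940 (1.68e-59), 8431563 to 8433341 (2.80e-58), 654734 to 655123 (9.39e-56), 17249668 to 17250314 (2.07e-55), 14874750 to 14875770 (1.56e-54) and 3741033 to 3741546 (7.74e-51). The narrowest of the 15 was 654734 to 655123, at 390 bp, and it ranked 7 in replicate 1 and 9 in replicate 2. The region just inside the right end, 17249668 to 17250314, ranked 11 in replicate 1 and 6 in replicate 2.

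Of the 15, 12 matched exactly 1 region in each replicate list. The replicate 1 q was the lower in 10 and the replicate 2 q in 5, and the combined q was lower than both in all 15. Of the 15, 11 ranked among the 15 strongest IV regions of replicate 1 and 10 among those of replicate 2, with 7 in both. Their nearest neighbour lay a median of 988 bp away, against 2145 bp for all IV regions. Of the 100 strongest regions of the whole combined list, IV held 13, against 10 on II, 12 on III, 13 on V and 19 on X. Of all 7745 regions of that list IV held 1199. In replicate 1 IV held 17 of the best 100, against 12 on II, 14 on III, 17 on V and 23 on X. In replicate 2 it held 19, against 11 on II, 16 on III, 16 on V and 19 on X. The rest of each 100 lay outside these 5 chromosomes. The q of the fifteenth region was 7.74e-51 on IV, against 1.27e-47 on II, 4.50e-50 on III, 9.23e-49 on V and 9.98e-58 on X.

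**Figure D2:**
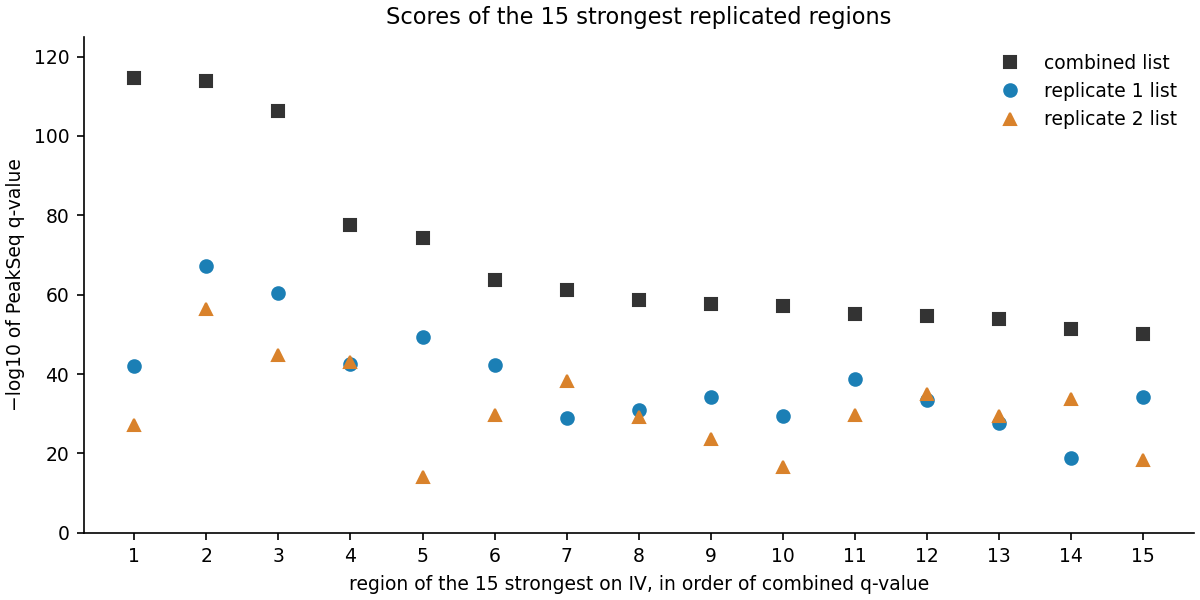
The 15 strongest replicated regions of IV by combined q, with the −log10 q of each region in the combined, replicate 1 and replicate 2 lists. The combined score lies above both replicate scores in all 15, and the fifth, starting at 9041834, has the widest gap between the replicates.

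Regions on IV came in runs as well as singly. The median gap between neighbouring combined regions was 5897 bp (95% interval 5026 to 6831), with the middle 50% of gaps between 1632 and 18656 bp. Of 1198 gaps, 85 (7.10%) were under 500 bp, 265 (22.1%) were 500 to 2000 bp, 378 (31.6%) were over 2000 and up to 10000 bp, 401 (33.5%) were over 10000 and up to 50000 bp, and 69 (5.76%) were longer. On II, III, V and X together these classes held 7.68%, 20.9%, 32.2%, 34.4% and 4.91% of the gaps, close to those of IV. The median gap was 5897 bp on IV against a mean of 6260 bp over the other 4 chromosomes (range 5349 to 6733, exact two-sided permutation test, p = 0.8). In replicate 1 alone the order was the other way, 12680 bp on IV against a mean of 11465 bp. There IV had the longest median gap of the 5 chromosomes, with the others between 10782 and 12042.5 bp. The same exact test gave p = 0.2, the smallest it can give (adjusted 0.6).

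The widest gap, 15647066 to 15849712, spanned 202647 bp and held 0 regions in either replicate list. The next were 16664037 to 16845279 (181243 bp), with 0 replicate 1 and 3 replicate 2 regions, and 13541981 to 13707841 (165861 bp), also with 0 and 3. The gap 1882280 to 2033046 (150767 bp) held 1 region of each replicate, and 16024503 to 16169538 (145036 bp) held 1 replicate 1 and 2 replicate 2 regions. Of these 5 gaps, 4 lay right of the middle of the chromosome. Whether reads could be placed in these gaps was not tested.

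Dense stretches, defined as 5 or more consecutive regions with every gap at most 2000 bp, took up little sequence but held a visible part of the regions. There were 15 on IV with 88 regions, which is 7.34% of the IV regions (95% interval 5.93 to 8.96), beside 5.89% in the whole combined list. Most did not recur as stretches: IV had 4 stretches in replicate 1 and 5 in replicate 2, and 10 of the 15 combined stretches overlapped a stretch of neither, while 3 overlapped a stretch of both. They spanned 4692 to 10769 bp each and 116264 bp in all, 0.665% of the chromosome. The left part of IV held 7, the middle part 6 and the right part 2, and 6 of the 15 lay between 4 and 6 Mb. By size, 1 held 8 regions, 2 held 7, 6 held 6 and 6 held 5.

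In the combined list IV had the highest share in dense stretches of the 5 chromosomes, at 7.34%, with the others between 2.63% on III and 5.73% on X and a mean of 4.49%. It was not the highest of the whole list, since the regions outside these 5 chromosomes had a larger share. The difference from that mean was 2.85 percentage points, and the exact two-sided permutation test over chromosomes gave p = 0.4 (adjusted over 6 results, 0.96), where the smallest p it can give is 0.2. The order also depended on the definition: with runs of 3 or more regions, 20.9% of the IV regions were in a run, against a mean of 22.7% on the others. In replicate 2 the share was 3.64% on IV against a mean of 0.990% (p = 0.2 by the same exact test), and in replicate 1 it was 3.52% on IV against 2.12% (p = 0.6), where V was higher than IV at 4.53%.

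The largest stretch, 4017949 to 4028663, packed 8 regions into 10715 bp, of which 5 were in both replicates. Its strongest region, 4024103 to 4025080, had a q of 4.65e-31, and its weakest, 4019086 to 4019270, had a q of 0.00565 and was in neither replicate list. The 7-region stretches, 8527530 to 8536461 and 7782334 to 7792376, were weaker. The first had a best q of 2.66e-17 and 2 regions in both replicates, and the second a best q of 1.91e-14 and 3 such regions. The stretch 4397131 to 4407899 ended in a region of 2804 bp, 4405096 to 4407899, with a q of 3.26e-50, and regions covered 54.1% of its length. The stretch 4672046 to 4679033 had 6 regions, 5 of them in both replicates.

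The stretch 5598462 to 5607823 contained the second and the sixth strongest regions of IV within 6 regions, 5 of which were in both replicates. A further stretch of 5 regions, 5588140 to 5594456, ended 4005 bp to its left, the shortest distance between neighbouring stretches on IV. Over the 19684 bp from 5588140 to 5607823 there were 11 regions, 9 in both replicates, and they covered 6592 bp. The 2 that were not in both were the weakest of the 11, 5593084 to 5593285 (q 0.00803), found in neither list, and 5605301 to 5605574 (q 0.00706). The replicate 1 list joined this last one to the strong peak beside it, in 1 region of 1232 bp from 5604330 to 5605561. The strongest region of IV lay in the stretch 12196645 to 12205405, whose 5 regions covered 74.5% of its 8761 bp, the highest share of the 15 stretches. Beside it stood 12201890 to 12203220 (q 1.26e-36) and 12203878 to 12205405 (q 1.02e-34). These last 2 stretches, from 5588140 and from 12196645, were picked out after their values were seen.

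**Figure D3:**
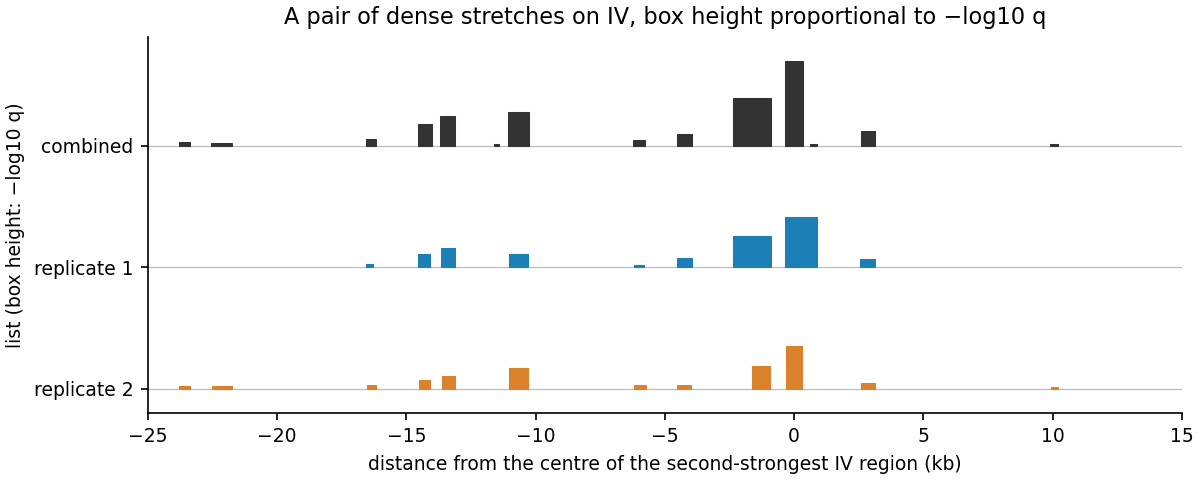
The neighbouring dense stretches around the second-strongest region of IV in the combined, replicate 1 and replicate 2 lists (horizontal axis: distance in kb from the centre of that region; box width: region width; box height: −log10 q, up to 113.8 in the combined list). Of the 11 combined regions of the pair of stretches, 9 have a counterpart in both replicate lists.

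Regions inside stretches had a larger median width and a lower median q than those outside. Their median width was 491.5 bp (95% interval 404 to 564) in stretches, against 362 bp (348 to 375) outside. Their median q was 2.62e-07 in stretches against 8.32e-06 outside. As −log10 q these medians were 6.59 (4.87 to 10.3) and 5.08 (4.74 to 5.51), with intervals that overlap. Of the regions in stretches, 55.7% (44.7 to 66.3) overlapped both replicate lists, against 42.9% (40.0 to 45.9) of those outside. The share in neither list was 25% in stretches and 22.6% outside. On the other chromosomes 49.8% (43.1 to 56.5) of the regions in stretches and 42.1% (40.6 to 43.5) of the others overlapped both lists. The median width there was 453 bp in stretches and 370 bp outside, and the median q 1.37e-06 and 1.04e-05. Intervals here are exact binomial ones for shares and cover counting error only, while neighbouring regions share their surroundings.

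Fewer than 50% of the combined IV regions had a counterpart in both replicates, and those that did were mostly the ones with the lowest q. On IV 526 combined regions (43.9%, 95% exact interval 41.0 to 46.7) had a counterpart in both replicate lists, beside 41.2% in the whole list. A further 119 (9.92%) overlapped replicate 1 alone, beside 10.3% in the whole list, and 281 (23.4%) replicate 2 alone, beside 22.8%. The remaining 273 (22.8%) overlapped neither, beside 25.7%. The whole list includes chromosome I, which is left out of the comparison of chromosomes. On II, III, V and X the share in neither was 20.7%, 22.4%, 24.3% and 22.8%, so IV lay within their range. How the combined list was made is not stated in the labels or headers. It may rest on the same reads as the replicate lists, so its overlap with each cannot be taken as independent evidence. Neither can the relation of that overlap to the combined q.

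The replicate lists were also set directly against each other. Neither labels nor headers tell which libraries and which input entered either list, so they may share a control. Of the 654 replicate 1 regions on IV, 532 (81.3%, 78.1 to 84.3) overlapped a replicate 2 region, beside 79.4% in the whole list. Of the 880 replicate 2 regions, 535 (60.8%, 57.5 to 64.0) overlapped a replicate 1 region, beside 61% in the whole list. The longer list had the lower share, as 345 replicate 2 and 122 replicate 1 regions had no partner. The share of combined regions in both lists was 43.9% on IV, against a mean of 42.6% and a range of 40.3% to 45.3% on II, III, V and X (exact two-sided permutation test, p = 0.6). For replicate 1 the share on IV was the highest of the 5 chromosomes, 81.3% against a mean of 78.1%, with the smallest p the test can give, 0.2 (exact permutation, adjusted 0.6). For replicate 2 the share was 60.8% on IV against a mean of 60.9% (exact permutation, p = 1).

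Medians on IV were a combined q of 3.46e-12 and 479.5 bp for regions found in both replicates. For those in replicate 1 alone they were 1.01e-04 and 338 bp, and for those in replicate 2 alone 6.90e-05 and 319 bp. For the 273 in neither list they were 0.00304 and 212 bp, and 60 of these regions were under 100 bp. The IV regions were then ranked by q and divided into 4 groups of like size. Of the strongest group 99.3% overlapped both lists, then 66.7%, 9.36% and 0%. On II, III, V and X together the groups gave 98.1%, 63.9%, 7.53% and 0.0818%. Of the 300 weakest IV regions 0 were in both lists, which allows a share of up to 1.22% (exact interval).

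In the replicate 1 list the 4 groups of IV regions overlapped replicate 2 in 99.4%, 91.4%, 77.9% and 56.7% of cases, and in the replicate 2 list they overlapped replicate 1 in 98.2%, 67.3%, 50.9% and 26.8%. On the other chromosomes the replicate 1 groups gave 98.2%, 88.3%, 69.8% and 55.7% and the replicate 2 groups 95.4%, 75.2%, 45.6% and 27.1%. The second group of replicate 2 was thus lower on IV, at 67.3% (60.6 to 73.4), against 75.2% (72.2 to 78.1) on the others; that difference was not tested. Left to right, the share in both lists was 45.6% (40.5 to 50.7), 45.3% (40.9 to 49.7) and 39.4% (33.9 to 45.1) in the 3 parts of IV, with intervals that overlap. Over the bins it ran from 32.4% (17.4 to 50.5) in bin 16 to 55.3% (44.1 to 66.1) in bin 5, again with intervals that overlap.

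**Figure D4:**
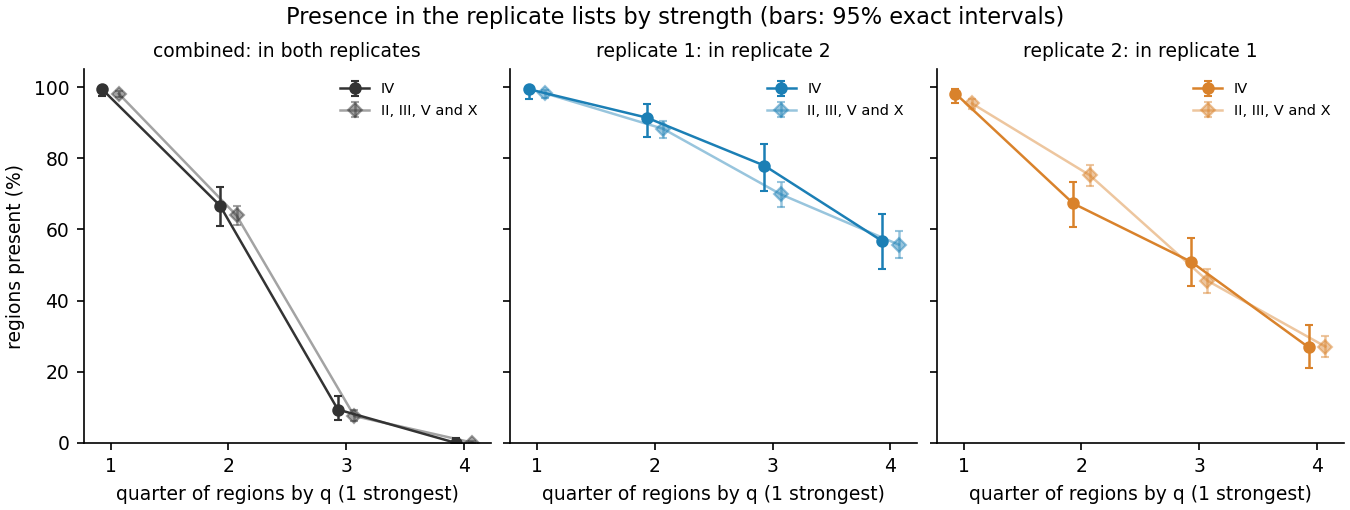
Share of regions present in the other lists (vertical axis, %) for 4 equal groups of regions by q, strongest first, on IV and on II, III, V and X together; bars are 95% exact intervals. On IV the share of combined regions in both replicates drops over the groups through 99.3%, 66.7%, 9.36% and 0%.

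Overlapping regions of the replicate lists on IV had close midpoints. Regions were paired by the largest overlap, each used once, and the 527 pairs had midpoints a median of 28.5 bp apart, and 93.0% lay within 200 bp. On the other chromosomes that share was 91.8% on V to 95.3% on III. Pairs had to overlap, so the distances and the shared bases were partly set by the pairing. The median pair shared 80.9% of the bases that either covered. Scores (−log10 q) of the pairs had a Spearman correlation of 0.665 and a Pearson correlation of 0.772 across the pairs of IV, a description over regions that share libraries. Replicate 2 had the lower q in 296 pairs and replicate 1 in 231. Of the 526 combined regions in both lists, 509 (96.8%) matched 1 region of each, while 8 of the 1199 took in 2 or more replicate 1 regions and 12 took in 2 or more replicate 2 regions.

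Most regions of IV were narrow, and the few broad ones were mostly found again in both replicates. The median width was 364 bp (95% interval 353 to 379; middle 50% from 264 to 514 bp), and the extremes were 1 and 4561 bp. Together the regions covered 521136 bp, 2.98% of the chromosome. Width and score had a Spearman correlation of 0.675 across the IV regions. The median on IV, 364 bp, was set against a mean of 372 bp on the others (360 on V to 397 on X), with p = 0.8 in the exact permutation test.

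Of the IV regions 49 (4.09%, 3.04 to 5.37) were 1000 bp or wider, beside 4.89% in the whole list. This was the lowest share of the 5 chromosomes compared, against 4.58% on V, 5.39% on II, 5.83% on III and 7.10% on X, a difference that was not tested. The regions outside these 5 chromosomes had a lower share still. In replicate 2 IV was again the lowest of the 5, at 3.18%, but in replicate 1 III was lower, at 3.97% against 4.74% on IV. The 49 on IV had a median q of 1.91e-28, and 41 of the 49 (83.7%) were in both replicates and 0 in neither. On II, III, V and X together 86.5% of the regions this wide were in both and 2.85% in neither. The left, middle and right parts of IV held 14, 17 and 18 broad regions, so the right part, with the fewest regions, had the most broad ones. Bin 15 (14000001 to 15000000) had 7, more than any other bin, among only 43 regions, and its median width of 477 bp was the highest of the 18 bins. At the other extreme, 73 regions (6.09%) were under 100 bp, beside 6.71% in the whole list, and 60 of those (82.2%) were in neither replicate and 1 was in both. On II, III, V and X together 77.3% of the regions under 100 bp were in neither.

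The widest region of IV, 17277049 to 17281609, was 4561 bp wide with a q of 1.44e-30 and lay near the right end. The next, 14610538 to 14614597 (4060 bp, q 1.64e-46) and 14619366 to 14623123 (3758 bp, q 2.13e-24), both lay in bin 15. They were followed by 4405096 to 4407899 (2804 bp) and by the strongest region, 12198707 to 12201427 (2721 bp). All 5 were in both replicate lists, and 14610538 to 14614597 and 12198707 to 12201427 each took in 2 regions of each replicate.

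Some IV regions appeared in a single replicate despite low q-values. In replicate 1 the strongest without a partner was 5185020 to 5186028, with a q of 2.43e-08 at place 164 of that list on IV; the combined q there was weaker, 3.70e-05. The next were 16865505 to 16865856 (3.62e-08), 3636411 to 3637094 (1.59e-07), 3308674 to 3309103 (1.24e-06) and 8926995 to 8927589 (1.34e-06). In replicate 2 the strongest was 11026763 to 11028037, with a q of 1.82e-12 at place 106 and a combined q of 2.10e-10. It was followed by 4477033 to 4478260 (2.15e-11), 13253781 to 13254201 (1.87e-10), 8225404 to 8225728 (4.88e-09) and 7165761 to 7166207 (1.54e-07). The median q of regions without a partner was 0.00168 in replicate 1, against 5.63e-06 with one, and 0.00134 in replicate 2, against 1.20e-06 with one.

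Few replicate regions on IV were missing from the combined list, and those were weak. They numbered 2 in replicate 1 (0.306%, beside 1.2% in the whole list) and 62 in replicate 2 (7.05%, beside 5.59%). For replicate 1 this share was the lowest of the 5 chromosomes compared, with 0.992% on III to 2.06% on V. For replicate 2 it was the highest, with 4.57% on III to 6.83% on II. The lowest q among them was 4.49e-04 at 10807824 to 10808317 in replicate 1, where the other was 13348913 to 13349363. In replicate 2 it was 1.97e-04 at 5264917 to 5264978, followed by 8621927 to 8621952, 9048112 to 9048470, 9742549 to 9742709 and 14157539 to 14157570. None of the missing regions of IV was called in both replicates, and the same held on II, III and X. On V the replicate lists had 7 and 5 missing regions that were called in both, with q as low as 6.08e-116 in replicate 1, so that the counts given for V rest on a combined list that lacks them.

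IV was among the sparser of the 5 chromosomes compared. It had 68.5 regions per Mb, against 78.7 on X, 77.2 on III, 70.5 on II and 64.8 on V, a mean of 72.8. The difference of IV from that mean, -4.27 regions per Mb, gave p = 0.8 in the exact two-sided permutation test. IV was above V alone in both replicate lists too, with 37.4 per Mb against a mean of 40.2 for replicate 1 and 50.3 against 51.8 for replicate 2. For the 6 features tested in the combined list, adjusted p-values were 0.96 or 1. With 5 chromosomes as the units no difference could reach a p under 0.2, so the tests leave a difference undetectable with this number of chromosomes and do not show that IV and the others are alike.

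**Figure D5:**
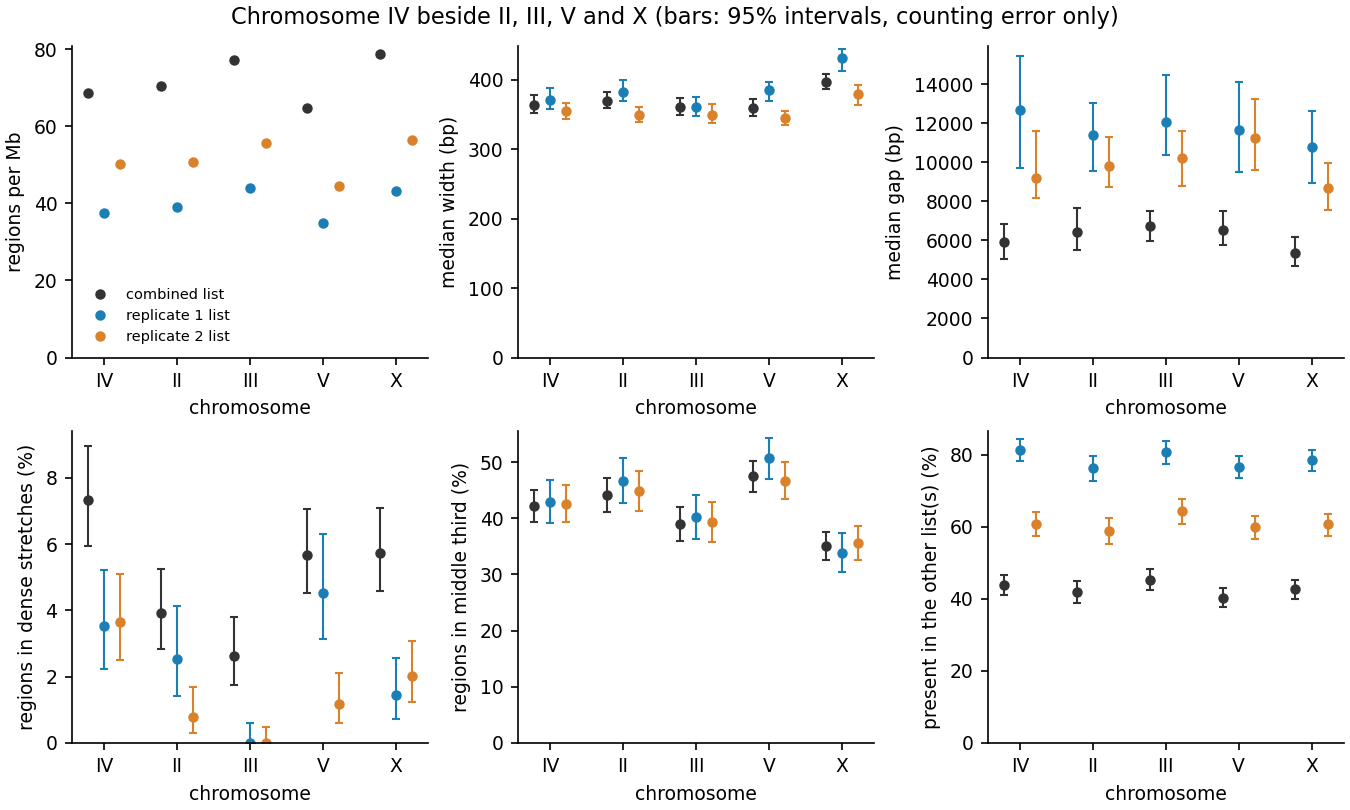
Features of the regions on IV, II, III, V and X in the combined (black), replicate 1 (blue) and replicate 2 (orange) lists, with a panel per feature, its unit on the vertical axis and 95% intervals as bars where drawn. In the combined list IV lies inside the range of the other chromosomes drawn in every panel except the share in dense stretches, where it is the highest of those drawn at 7.34%. Chromosome I is not drawn.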

How the data were processed

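ChIP-seq regions were called with PeakSeq on WormBase WS190, per the file headers. The deposited q-values are the authors' own. Not given in the sources used here are the aligner, how PeakSeq was set, which input went with which list, and how the combined list was made. Positions are 1-based, and chromosome lengths are the furthest region end in any list. Overlap means at least 1 shared bp. Medians have 95% order-statistic intervals and shares have 95% Clopper-Pearson intervals (exact), for counting error alone. IV was set against II, III, V and X by an exact two-sided permutation test with chromosomes as units, adjusted (Benjamini-Hochberg) over 6 results. Chromosome I took no part. Named were the 15 strongest replicated regions, the 6 largest dense stretches, the 5 widest regions and gaps, the 3 fullest and 3 emptiest bins and, per replicate list, the 5 strongest regions missing from the other or the combined list. The set, the lists and the rules were chosen with earlier results of these data known. Python 3.11.15, numpy 2.4.6, pandas 2.3.3, scipy 1.17.1 and matplotlib 3.10.9 were used. Overlaps were checked against bedtools 2.31.1, and the code was tested on simulated data.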

Additional observations from a re-analysis of the deposited data

How the results depend on the processing

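Over 39 alternatives, 34 kept their direction, or moved little where there was none. In 3 the order turned round. The median gap was 14933 bp on IV against a mean of 13551 bp on the others at a q of 1e-05 or lower. With a single replicate list in place of the combined list, it was 9193 bp in replicate 2 and 12680 bp in replicate 1. Of these lists the order turned in replicate 1 alone. The share in dense stretches was 20.9% with runs of 3 or more regions. It was 1.67% with gaps up to 1000 bp, 19.5% with gaps up to 5000 bp, 1.79% at a q of 1e-05 or lower and 3.95% after merging regions within 500 bp, each time above the mean of the others. Presence in both lists was 82.1% at a q of 1e-05 or lower and 39.0% with a reciprocal overlap of 50%. For the strongest of the 4 groups by q it was 89.3% with that overlap and 89.7% with midpoints within 200 bp, alternatives chosen after seeing the data. The cause was not tested. No paired analysis was possible because the lists hold no values per library. Depth is unknown, and no untagged strain was analysed here.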

Other observations

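In the deposited lists the combined q was lower than the best overlapping replicate q in 525 of 526 IV regions found in both replicates, and in 103 of 119 found in replicate 1 alone and 245 of 281 found in replicate 2 alone. The median gain in score (−log10 q) was 4.58 for regions in both, 1.13 for replicate 1 alone and 0.94 for replicate 2 alone. Of the combined regions that overlapped replicate 2 alone, the share with a lower combined q was 87.2% on IV (95% exact interval 82.7 to 90.9), against 79.3% on II, 85.2% on III, 86.3% on V and 78.6% on X. For those in replicate 1 alone IV was not the highest, with 86.6% against 89.0% on II, 94.4% on III, 84.8% on V and 90.3% on X. For those in both it was 99.8% on IV, against 98.2% on II to 99.8% on X. Differences between chromosomes were not tested.

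Of the 73 IV regions under 100 bp, 23 were 10 bp or less and 3 were 1 bp. Their lowest q was 5.01e-06, and 29 of them (39.7%) lay within 2000 bp of another region, against 576 of all 1199 IV regions.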
